A study of Mus musculus with 8 samples.

Results

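The 8 genes described here encode receptors of the steroid receptor family: the estrogen receptors Esr1 and Esr2, the estrogen-related receptors Esrra, Esrrb and Esrrg, the progesterone receptor Pgr, the glucocorticoid receptor Nr3c1 and the mineralocorticoid receptor Nr3c2. They were picked by name, with the mutant and control values of these arrays already known, and matched exactly to the gene symbols of the array annotation. All 8 were measured, each by 1 probe set (a group of probes read as 1 value), among 19938 genes in all. Because the contrast between genotypes was known when the genes were picked, their differences are given as a description, with no p-value.

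The study deleted Bcl11a, a zinc finger transcription factor, in the mouse neocortex and measured RNA from layers II-IV, cut out by laser, at postnatal day 2. The 4 control pups carried Bcl11a flox/+ with Emx1 IRESCre/+, and the 4 mutant pups carried Bcl11a flox/flox with the same Emx1 IRESCre/+. Emx1 drives the Cre recombinase in the dorsal forebrain progenitors that make cortical excitatory neurons and much of the glia, so interneurons, vessels and microglia keep their Bcl11a alleles. The controls also carry the Cre and lack 1 allele where it acts, so each comparison sets the loss of both alleles against the loss of 1. The series title places Bcl11a and Bcl6 in a pathway that controls the death of projection neurons during development, and the comparison asks which transcripts differ in the mutant layers.

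Steroid receptors are transcription factors that are switched on by small lipid hormones. After binding estradiol, progesterone, glucocorticoid or mineralocorticoid they leave their chaperones, pair up and bind short palindromic DNA elements near their target genes. The estrogen-related receptors share the DNA-binding fold of the estrogen receptors but have no known steroid ligand, and they act with coactivators of the PGC-1 family on genes of energy metabolism. In rodents Esr1 is expressed for a time in the neonatal cortex, Pgr is a classical target of estrogen signalling, and Nr3c1 and Nr3c2 both bind corticosterone.

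Values are deposited log2 expression levels, 1 array per pup, and each difference is the mutant mean less the control mean in log2 units, with the standard error (SE) of the linear model fitted over all genes. A gene is said to have risen or fallen when its adjusted p (Benjamini-Hochberg over 19938 genes, limma) was under 0.05. The labels do not say that the pups came from separate litters, and the number of arrays limits the precision. Array medians lay between 4.83 and 4.91, and correlations across genes were 0.994 to 0.997 within a genotype. Principal component 1 (38.4% of the variance) separated the genotypes, and control 1 lay apart from the other arrays on component 2 (16.6, against -10.9 to 7.8). The deleted gene itself, Bcl11a, fell from 10.45 ± 0.13 to 8.63 ± 0.21, and Bcl6, a transcriptional repressor, fell from 7.88 ± 0.23 to 6.06 ± 0.21 (SD, n = 4; limma adjusted p = 4.90e-07 and 1.65e-06). A level at which a reading may be background was taken from 3 Y-linked genes, which read at most 4.31 in the 3 arrays with high Xist; it is called the floor below, and it was measured on other probes.

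Of the 8 receptors, 2 rose (Esr1 and Pgr), 1 fell (Nr3c2) and 5 did not pass the threshold. Across all genes 4.15% passed, 2.36% higher and 1.79% lower in the mutant. Of the genes that passed, 56.8% were higher, a share that was 49.7% after each array was centred on its median. Nothing is read from the receptors' count because the genes were picked with this contrast in view. In the same 3 receptors the readings of the genotypes did not overlap, which held for 9.25% of all genes. In bulk tissue, fewer or more cells of a type and less or more RNA per cell cannot be told apart. The median difference of the 8 receptors was -0.04, beside 0.02 over all genes.

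**Figure D1:**
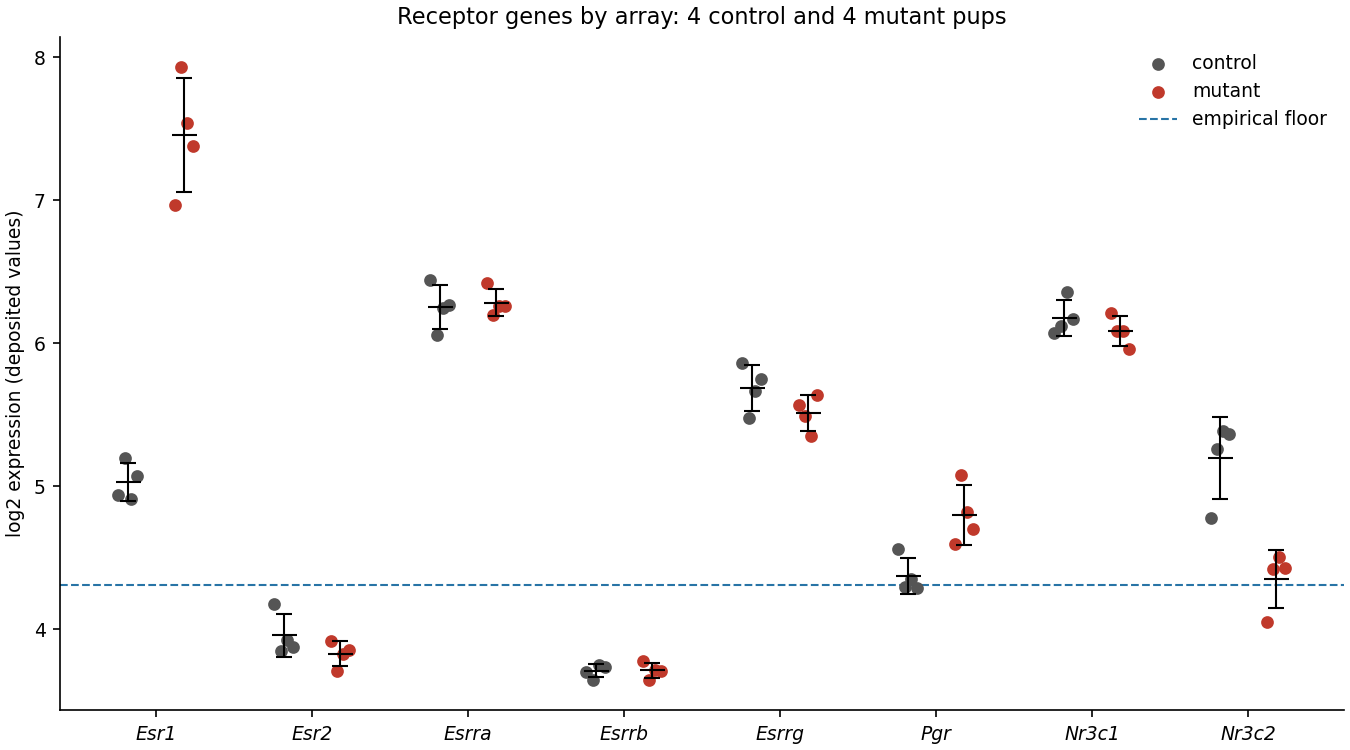
Deposited log2 expression of the 8 receptor genes (vertical axis) in each control array (grey points) and mutant array (red points), with the mean and SD of the 4 arrays of each genotype as black bars and the floor of 4.31 as a dashed line. Esr1 stands far apart between the genotypes, Pgr and Nr3c2 differ near the floor, and Esr2 and Esrrb lie below the floor in all 8 arrays.

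Esr1 encodes estrogen receptor alpha, the main mediator of estradiol action in the brain. Its probe set, 10367600, read 4.94, 5.20, 4.91 and 5.07 in controls 1 to 4. In mutants 1 to 4 it read 6.97, 7.93, 7.54 and 7.38. All 8 readings were above the floor, and a gap of 1.77 separated the highest control from the lowest mutant. The mean went from 5.03 ± 0.13 to 7.45 ± 0.40 (SD, n = 4), a log2 difference of 2.43 (SE 0.15), which is 5.38-fold with a 95% interval of 4.27 to 6.77.

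The mutants also differed among themselves in Esr1. Their readings spanned 0.96 on the log2 scale, or 1.95-fold between mutant 1 and mutant 2, while the controls spanned 0.29. The SD of Esr1 about its genotype means, 0.30, was at percentile 99.0 of all genes, a measure that does not use the difference between the genotypes. Whether the sex of the pup went with this spread was looked at through Xist, the transcript that silences an X chromosome in females. Xist was high in controls 1 and 3 and in mutant 3 (8.89 to 9.53) and at most 3.81 in the other arrays. Esr1 in mutant 3, at 7.54, lay inside the range of the other mutants. In the controls the high-Xist arrays read 4.94 and 4.91, below the 5.20 and 5.07 of the other two. With each array's Xist value as a covariate the Esr1 difference was 2.41.

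Esr2 encodes estrogen receptor beta, which binds the same hormone and the same DNA elements as the alpha form. Its probe set, 10401035, read 4.18, 3.85, 3.93 and 3.88 in controls 1 to 4 and 3.92, 3.71, 3.83 and 3.86 in the mutants. The groups overlapped, and every reading lay under the floor, so that no level above background was seen in either genotype. The log2 difference of Esr2 was -0.13 with a 95% interval of -0.31 to 0.05. Both the difference and its interval describe readings at background.

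Pgr encodes the progesterone receptor. Its probe set, 10583179, read 4.56, 4.30, 4.35 and 4.29 in controls 1 to 4 and 4.60, 5.08, 4.82 and 4.70 in mutants 1 to 4. The groups did not overlap, but only 0.04 separated control 1 from mutant 1. Of the controls, 2 were at or below the floor, and all mutants were above it. The mean went from 4.38 ± 0.13 to 4.80 ± 0.21 (SD, n = 4), a difference of 0.43 (SE 0.10) or 1.34-fold with a 95% interval of 1.16 to 1.56. Pgr no longer passed without control 2, 3 or 4 (0.40, 0.42 and 0.40) or without mutant 2 or 3 (0.33 and 0.42).

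Pgr and Esr1 put the mutants in the same order. Mutant 2 was highest in both genes, followed by mutants 3, 4 and 1. In the controls the orders differed, with control 1 highest in Pgr and control 2 highest in Esr1. With 4 mutants no correlation was computed, and the shared order was noticed after the values had been seen. The order was not particular to these receptors. Of the genes nearest to them, described below, Cldn1, Olfm3, Prss35 and Rerg had it too, and the others did not. The share of all genes with this order is not given here, so no link between Pgr and Esr1 is read from it.

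Nr3c2 encodes the mineralocorticoid receptor, which binds corticosterone with high affinity and in the adult brain is best known from the hippocampus. Its probe set, 10572949, read 4.78, 5.26, 5.39 and 5.37 in controls 1 to 4. In mutants 1 to 4 it read 4.05, 4.42, 4.51 and 4.43, of which mutant 1 was below the floor. Control 1, the array that lay apart on component 2, was the lowest control, and still 0.27 above the highest mutant. The mean went from 5.20 ± 0.29 to 4.35 ± 0.21 (SD, n = 4), a difference of -0.85 (SE 0.13), which is 1.80-fold lower with a 95% interval of 1.47 to 2.19. Without control 1 the difference was -0.99. The SD of Nr3c2 about its genotype means, 0.25, was at percentile 97.9 of all genes.

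Nr3c1 encodes the glucocorticoid receptor, which binds the same hormone as Nr3c2 with lower affinity and is expressed in most cells. Its probe set, 10458569, read 6.07, 6.12, 6.36 and 6.17 in the controls and 6.21, 6.09, 6.09 and 5.96 in the mutants. The groups overlapped. The difference was -0.09 with a 95% interval of -0.26 to 0.08, so a fall as large as the smallest within the Nr3c2 interval, -0.56, lies outside it.

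The 3 estrogen-related receptors did not pass the threshold. Esrra, the form that works with PGC-1 coactivators on mitochondrial genes, read 6.44, 6.06, 6.25 and 6.27 in the controls and 6.42, 6.20, 6.26 and 6.26 in the mutants (probe set 10465485). Its difference was 0.03, with a 95% interval of -0.15 to 0.21. Esrrg, the form linked to oxidative metabolism in neurons and muscle, read 5.86, 5.48, 5.67 and 5.75 in the controls and 5.57, 5.49, 5.35 and 5.64 in the mutants (probe set 10352576). The Esrrg groups overlapped, and the difference of -0.18 had a 95% interval of -0.37 to 0.01. Esrrb, best known as a pluripotency and inner ear factor, read 3.65 to 3.75 in the controls and 3.65 to 3.78 in the mutants (probe set 10397440), under the floor on every array. The spread of Esrrb about its genotype means, 0.05, was at percentile 3.58 of all genes.

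**Figure D2:**
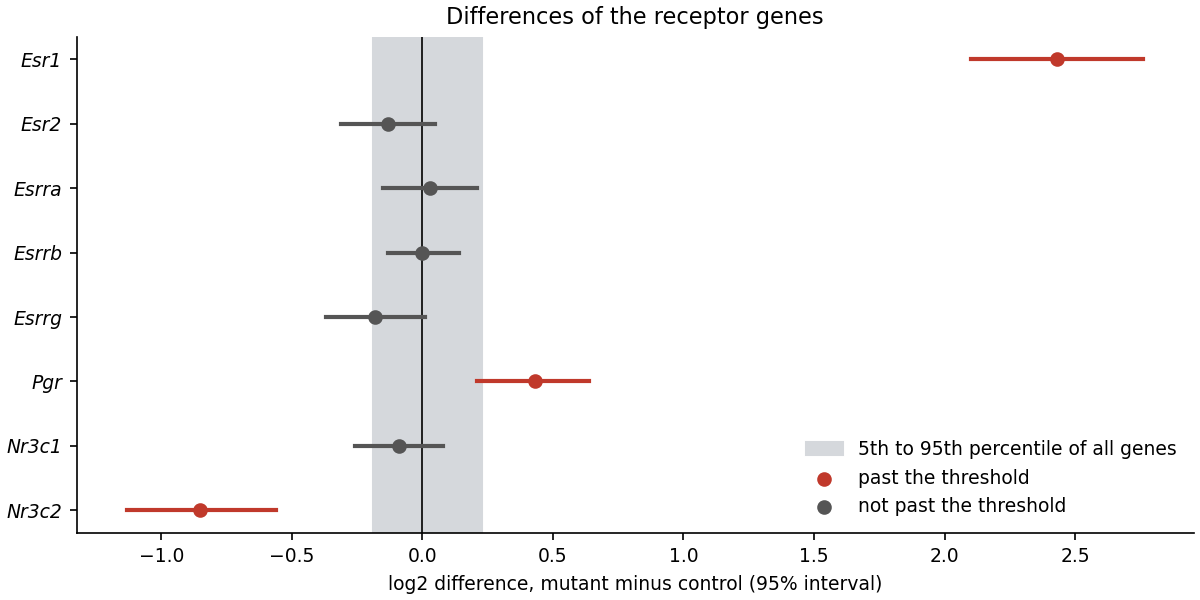
Log2 difference, mutant minus control, of each receptor gene (points) with its 95% interval (lines), red where the gene passed the threshold and grey where it did not; the band runs from the 5th to the 95th percentile of all genes, -0.19 to 0.23. The points of Esr1, Pgr and Nr3c2 lie outside the band, and the intervals of the other 5 receptors include 0.

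The DNA just upstream of the annotated starts of the 3 receptors that passed is shown because the series concerns the loss of Bcl11a and the fall of Bcl6, both DNA-binding repressors, and because steroid receptors act through short response elements that can be looked for in the letters. The windows are the 250 bases before each RefSeq start (build GRCm38.p6), and RefSeq lists 2 starts for Esr1. The window of the first Esr1 start lies outside the gene, while those of the second Esr1 start, Pgr and Nr3c2 lie inside the span that RefSeq gives to the respective gene. Capitals mark the only match found to any of the 5 motifs searched.
Esr1, first start (chr10:4611739-4611988, plus strand): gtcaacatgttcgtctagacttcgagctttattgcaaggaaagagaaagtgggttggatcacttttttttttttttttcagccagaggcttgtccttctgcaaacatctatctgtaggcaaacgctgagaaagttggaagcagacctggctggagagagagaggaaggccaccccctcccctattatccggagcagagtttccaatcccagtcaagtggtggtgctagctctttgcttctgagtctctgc
Esr1, second start (chr10:4709908-4710157, plus strand): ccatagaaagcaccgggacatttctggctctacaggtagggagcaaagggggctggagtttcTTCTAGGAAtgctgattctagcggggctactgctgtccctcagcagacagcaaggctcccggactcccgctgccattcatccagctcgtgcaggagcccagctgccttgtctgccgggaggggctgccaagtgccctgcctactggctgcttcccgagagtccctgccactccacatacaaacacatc
Pgr (chr9:8899583-8899832, plus strand): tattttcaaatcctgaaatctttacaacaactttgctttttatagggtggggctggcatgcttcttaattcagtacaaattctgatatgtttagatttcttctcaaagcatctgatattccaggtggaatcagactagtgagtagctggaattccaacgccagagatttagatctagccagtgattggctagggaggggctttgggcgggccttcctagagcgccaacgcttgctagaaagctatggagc
Nr3c2 (chr8:76902080-76902329, plus strand): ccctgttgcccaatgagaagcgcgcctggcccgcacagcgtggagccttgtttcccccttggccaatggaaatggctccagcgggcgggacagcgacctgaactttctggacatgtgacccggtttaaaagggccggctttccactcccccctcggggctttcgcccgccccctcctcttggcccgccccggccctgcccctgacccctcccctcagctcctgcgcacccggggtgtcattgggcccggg

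The motifs were searched on both strands of the 250-base windows. For the estrogen receptors the motif was GGTCA and TGACC with any 3 bases between them, and for the glucocorticoid, mineralocorticoid and progesterone receptors GNACA and TGTNC with any 3 bases between them. The motif was TCAAGGTCA for the estrogen-related receptors, TGACCA for Bcl11a and TTCCTNGAA for Bcl6. The Bcl11a letters contain the TGACC of the estrogen element, and the estrogen-related element contains its GGTCA, so these 3 motifs can overlap. The marked letters before the second Esr1 start, from -188 to -180, match the Bcl6 motif on the opposite strand. Of 32851 such windows of all genes, 1.31% hold this motif, 11.4% hold that of Bcl11a, 0.0639% the estrogen element, 0.387% the estrogen-related element and 0.387% the element of the other steroid receptors. Of the other members that were searched, only Esr2 had a match, at 2 places to the letters of Bcl11a. Nr3c1 was left out of the search, so whether it holds a match is not known here. A match is a run of letters and does not show binding, and the arrays do not tell which Esr1 start was used.

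**Figure D3:**
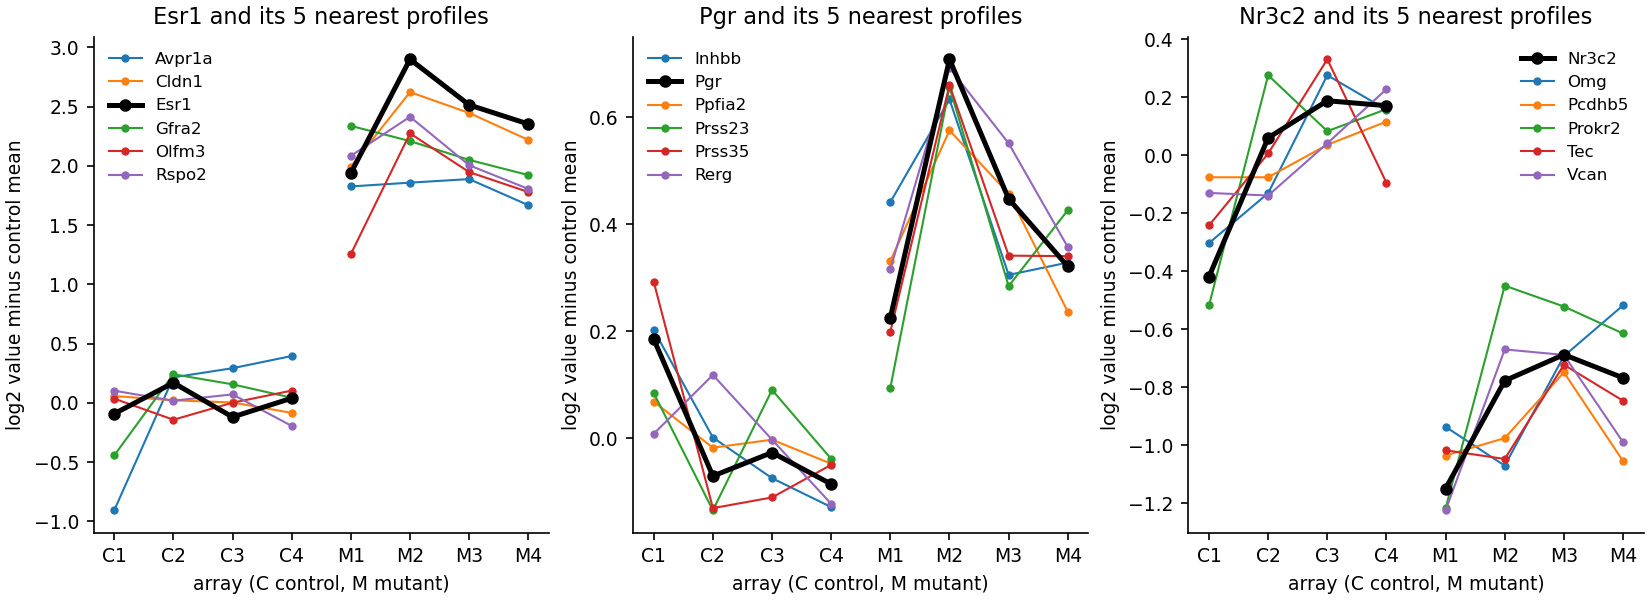
Log2 value minus the control mean (vertical axis) on each control (C) and mutant (M) array for Esr1, Pgr and Nr3c2 (black) and the 5 genes nearest to each (colours); lines join points of a genotype only to guide the eye. Cldn1 follows Esr1 closely on all 8 arrays, and mutant 2 is the highest mutant for Pgr and for each of its 5 neighbours. The neighbours were picked for such likeness.

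The genes whose profiles over the 8 arrays were most like those of the 3 receptors were found by the root mean square (RMS) of the array-by-array distance, after subtraction of each gene's control mean. This measure is led by the difference between the genotypes, so near genes are mostly those of like difference. The genes near all 3 receptors were thus picked on the contrast that their p values measure. Those p values are a description and no independent evidence. Nearest to Esr1 was Cldn1, a tight junction protein, at 0.149, with 5.10, 5.07, 5.05 and 4.96 in the controls and 7.04, 7.67, 7.49 and 7.27 in the mutants. Cldn1 put the mutants in the same order as Esr1 did, a likeness that the choice of near genes favours. Rspo2, a secreted enhancer of Wnt signalling, followed at 0.348, Gfra2, a receptor of neurturin, at 0.394, the olfactomedin gene Olfm3 at 0.453, and Avpr1a, a vasopressin receptor, at 0.604. These genes rose by 2.32, 2.08, 2.13, 1.81 and 1.81, with limma adjusted p values of at most 2.53e-04.

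Nearest to Pgr were Prss35, a serine protease-like gene, at an RMS distance of 0.069, and Ppfia2, a presynaptic liprin, at 0.083. Inhbb, a subunit of activin and inhibin, Prss23, a serine protease, and Rerg, a Ras-like GTPase, followed at 0.101, 0.105 and 0.106. Ppfia2, Inhbb and Rerg rose, by 0.40, 0.43 and 0.48 (limma adjusted p = 0.00846, 0.0152 and 0.00631). Prss35 and Prss23 did not pass, with differences of 0.38 and 0.37 (limma adjusted p = 0.0782 and 0.0805). Inhbb no longer passed when control 3, control 4 or mutant 2 was left out (adjusted p = 0.0509, 0.0508 and 0.0532).

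Nearest to Nr3c2 were Vcan, the matrix proteoglycan versican, at 0.164, and Tec, a cytoplasmic tyrosine kinase, at 0.167. Prokr2, a prokineticin receptor, Omg, the oligodendrocyte myelin glycoprotein, and Pcdhb5, a clustered protocadherin, followed at 0.170, 0.177 and 0.194. They fell by 0.89, 0.91, 0.70, 0.80 and 0.95, and the limma adjusted p was at most 0.00319 for all but Prokr2 (0.0453). Prokr2 lost its call without any 1 of the arrays other than control 1 (adjusted p from 0.0557 to 0.137), after centring of the arrays (0.0556), with an intensity trend and robust variances (0.121) and with Xist as a covariate (0.0650).

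The receptors work with other proteins, which were read from 8 lists of genes grouped by known function. Of the 159 genes listed 144 were measured, and 6 of them (4.17%) passed, 4 higher and 2 lower, beside 4.15% of all genes. The share is close to the background.

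The machinery around the receptors held no gene that passed in limma, with or without moderated variances. Its counts stand beside 4.15% of all genes past the threshold and 14.0% at an unadjusted p under 0.05. Of 10 membrane steroid receptors 0 passed (2 at an unadjusted p under 0.05), with differences from -0.12 to 0.20; these include Gper1, a G protein-coupled receptor that responds to estrogen (0.20, limma adjusted p = 0.342). Of 18 coactivators 0 passed (3 unadjusted), and the lowest values were those of Ppargc1a, which encodes PGC-1 alpha (-0.31, adjusted p = 0.145), and of Ncoa2, a p160 coactivator (-0.30, adjusted p = 0.0732). Of 11 corepressors 0 passed (2 unadjusted), with differences from -0.18 to 0.04. Of 14 chaperones and cochaperones 0 passed (1 unadjusted), with differences from -0.07 to 0.16. Of 28 genes of steroid synthesis and metabolism 0 passed (3 unadjusted), and 13 of them had means at or below the floor; the largest difference was that of Hsd17b12, a hydroxysteroid dehydrogenase (0.25, adjusted p = 0.0815). The genes of these lists named here were chosen after their values had been seen.

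Genes known to respond to glucocorticoids moved in both directions. Among 21 with a reading, 2 fell, 1 rose and 18 stayed short of the threshold, and the list median was -0.02. Of all genes 4.15% passed. The list was written with earlier results of these data known, so its counts and p values are no independent evidence. Klf9, a Krüppel-like transcription factor, read 8.42, 8.16, 8.32 and 8.06 in the controls and 6.95, 7.06, 7.16 and 6.89 in the mutants, a fall of 2.33-fold (log2 difference -1.22, SE 0.09, limma adjusted p = 3.76e-06). Sgk1, the serum- and glucocorticoid-regulated kinase, also fell, from 7.92 ± 0.15 to 7.35 ± 0.14 (SD, n = 4; difference -0.57, limma adjusted p = 0.00200). Ddit4, an inhibitor of mTOR signalling, rose by 0.55 (limma adjusted p = 0.0254), though its groups overlapped. Ddit4 lost its call after centring of the arrays (adjusted p = 0.0537) and when control 1, control 4 or any mutant but the first was left out (0.0501 to 0.0974). Fkbp5 and Tsc22d3, chosen after their values had been seen as widely used readouts of the glucocorticoid receptor, did not pass, with differences of -0.07 and 0.13 (limma adjusted p = 0.789 and 0.507).

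Among 22 measured genes known to respond to estrogen in some tissue, 3 rose, 0 fell and 19 stayed short of the threshold. Of all genes 4.15% passed. The list median was 0.10 beside 0.02 for all genes. Igfbp4, which binds insulin-like growth factors, read 6.95, 7.13, 7.01 and 7.00 in the controls and 7.98, 8.21, 7.82 and 7.98 in the mutants, a 1.97-fold rise (difference 0.97, SE 0.08, limma adjusted p = 1.50e-05). Bcl2, the anti-apoptotic mitochondrial protein, rose by 0.67 and Ret, the signalling receptor of the GDNF family, by 0.35 (limma adjusted p = 0.00226 and 0.0103). The rises of all 3 were known from these arrays when the list was written, so they are no independent evidence of its direction. Oxtr, the oxytocin receptor, a known estrogen target in the brain, read 5.54, 5.39, 5.80 and 5.62 in the controls and 5.60, 6.34, 5.93 and 5.96 in the mutants. Its groups overlapped and it did not pass (0.37, limma adjusted p = 0.174), and Greb1, another such target, lay under the floor on every array. At an unadjusted p under 0.05, 8 genes of the list were higher and 2 lower, beside 14.0% of all genes in either direction. Those besides the 3 that rose were Oxtr, the growth factor genes Tgfa (0.30) and Bdnf (0.21), the chemokine gene Cxcl12 (0.25) and Crh (0.21), which encodes corticotropin-releasing hormone, all higher, and the growth factor gene Igf1 (-0.24) and Myc (-0.29), both lower. Crh was at or below the floor in all 4 controls and in 2 mutants. These genes and Greb1 were named after their values had been seen.

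Of 23 measured genes of energy metabolism that respond to the estrogen-related receptors, 0 passed in limma with or without moderated variances. The share that passed over all genes was 4.15%. At an unadjusted p under 0.05, 2 passed, beside 14.0% of all genes. Their differences ran from -0.23 to 0.16 with a median of 0.00. The lowest were those of Vegfa, the vascular growth factor (-0.23, limma adjusted p = 0.0936), and Ldhb, a lactate dehydrogenase subunit (-0.23, adjusted p = 0.0960), both named after their values had been seen.

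**Figure D4:**
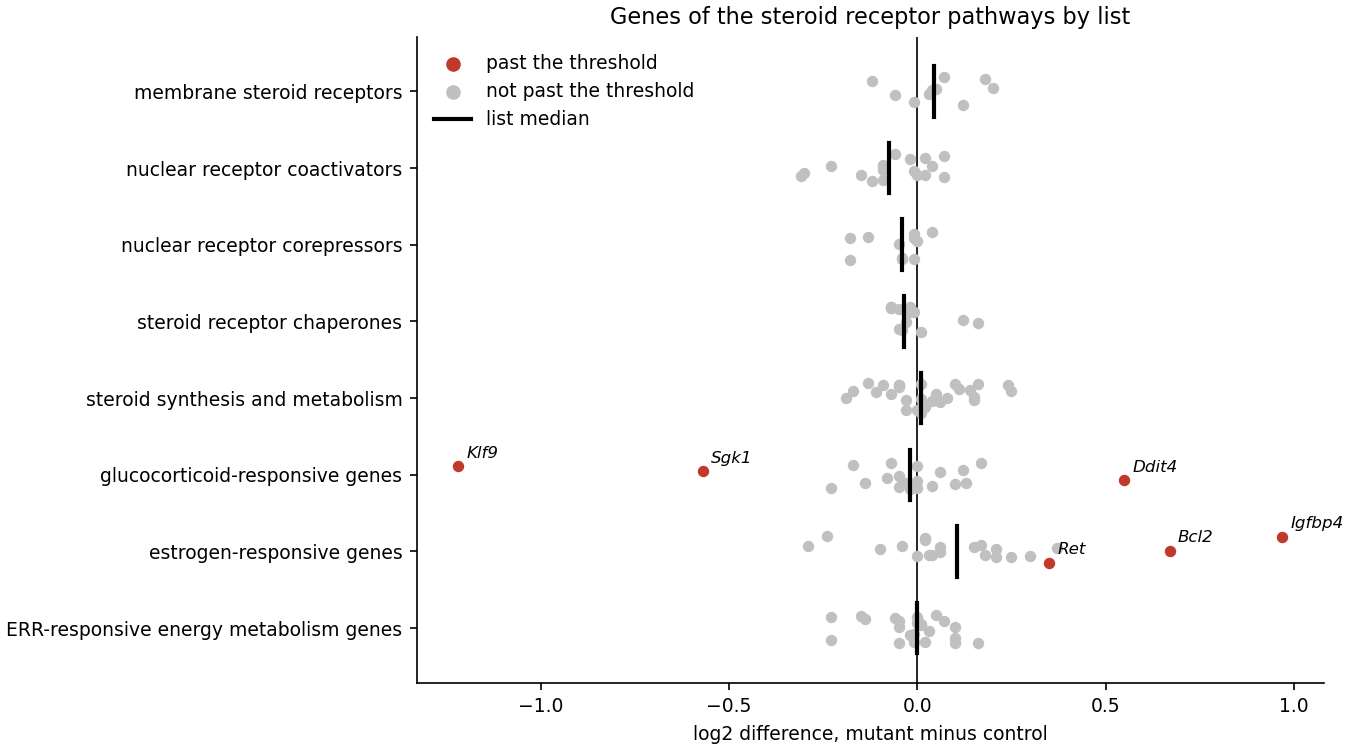
Log2 difference, mutant minus control (horizontal axis), of each measured gene of the 8 pathway lists (points, red where the gene passed the threshold), with each list's median as a black bar; points are spread vertically only to separate them. The 6 genes that passed all lie in the lists of glucocorticoid-responsive and estrogen-responsive genes.

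The tissue held the markers of cortical excitatory neurons, such as Neurod6 (10.65 ± 0.16 in controls) and Cux2 (8.90 ± 0.05; SD, n = 4). Both differed in the mutant, where Neurod6 rose by 0.70 and Cux2 fell by 1.29 (limma adjusted p = 5.02e-04 and 1.01e-06). Several cell type markers moved with the genotype beside the receptors, and their part in the receptor differences was not tested. Of all genes, 4.15% passed and 14.0% had an unadjusted p under 0.05. Of 7 excitatory neuron markers 1 rose and 3 fell (1 higher and 3 lower at an unadjusted p under 0.05), and the list's mean level ran from 9.26 to 9.45 in the controls and from 9.15 to 9.26 in the mutants. Of 8 deep-layer markers 1 rose (Ldb2, 1.38) and 1 fell (Ntsr1, -0.90), with 3 higher and 1 lower unadjusted. The mean level was 6.91 to 7.23 in controls and 7.27 to 7.41 in mutants. Control 1 was the lowest control for Ldb2 (8.29, beside 9.58 to 9.74) and for Sox5 (7.45, beside 8.35 to 8.60). The same held, by less, for Bcl11b (7.07, beside 7.26 to 7.44) and Crym (5.85, beside 5.90 to 6.07). Control 1 was the highest for Fezf2 (7.05, beside 6.60 to 6.72) and for Foxp2 (4.89, beside 4.78 to 4.83). For Tle4 and Ntsr1 it was neither. Of 5 subplate and claustrum markers 1 rose (Gnb4, 0.40) and 1 fell (Nr4a2, -2.15), with the same counts unadjusted. Their mean levels were 5.14 to 5.63 in controls and 5.03 to 5.20 in mutants. Of 9 interneuron markers 1 fell and 0 rose, but 6 were lower and 0 higher at an unadjusted p under 0.05, and the mean level was 7.01 to 7.16 in the controls and 6.83 to 6.92 in the mutants. Of 5 Cajal-Retzius markers 1 fell, with 1 higher and 1 lower unadjusted and mean levels of 5.55 to 5.93 and 5.82 to 6.03.

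Markers of the hypothalamus and amygdala, regions known for high Esr1, were also read. The counts here, too, stand beside 4.15% of all genes past the threshold and 14.0% at an unadjusted p under 0.05. Of 9 measured 0 passed in limma with or without moderated variances (1 at an unadjusted p under 0.05), 4 had means at or below the floor, and the differences ran from -0.09 to 0.25. The mean level of this list was 4.66 to 4.87 in the controls and 4.72 to 4.82 in the mutants, and its part in the Esr1 difference was not tested. Of the striatal, astrocyte, oligodendrocyte lineage, microglia, endothelial, meningeal and blood markers, 0 of 30 passed in limma with or without moderated variances. At an unadjusted p under 0.05, 7 passed, and all of these 7 were lower in the mutant. The differences of all 30 ran from -0.39 to 0.11.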

How the data were processed

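Total RNA of 8 pups was hybridised to Affymetrix GeneChip Mouse Gene 1.0 ST arrays, 1 per pup, and BRB-ArrayTools was used by the authors, per the labels. The deposited values, from 2.03 to 13.8, were treated as log2 expression on 1 scale across arrays; how background was corrected and arrays normalized, and the log base, is not given in the sources used here. Another base would change fold changes but not the calls. Of 35556 probe sets, 21789 had 1 gene symbol, and the brightest per gene over the 8 arrays was kept (19938 genes, dim ones included). The test of genotype used limma 3.58.1 under R 4.3.3 (genotype alone, moderated variances, two-sided), adjusted over all genes; the procedure was tested on simulated data. The members and the lists were chosen with earlier results of these data known, and named list genes are those past 0.05, at most 4 per list, other names being marked. Promoter windows are RefSeq's (GRCm38.p6); 7 of 8 members are shown or searched, and Nr3c1 is not. The 20 alternatives covered normalization, dim genes, probe sets, variances, weights, thresholds, a replicate block, Xist and single arrays.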

Additional observations from a re-analysis of the deposited data

Results flagged for a closer look

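Of 64 groups of 4 arrays examined (32 named genes in each genotype), 2 held an array far from the other 3, where chance flags about 1 in 20 groups. Avpr1a, one of the genes nearest to Esr1, read 5.46 in control 1 and 6.58 to 6.76 in the other controls. Xist read 8.89 in mutant 3 and at most 3.81 in the other mutants, which marks this pup as the only mutant with high Xist. None of the 8 receptors was flagged in either genotype. Nr3c2 still had a low array in each, 4.78 in control 1 beside 5.26 to 5.39 in the other controls. In mutant 1 it read 4.05, beside 4.42 to 4.51 in the other mutants.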

How the results depend on the processing

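Over all genes, 827 passed; leaving out 1 array at a time gave 584 to 814. Without moderation of the variances 249 genes, 1 receptor (Esr1) and 2 pathway genes passed, and at an adjusted p under 0.01 447 genes, 2 receptors and 4 pathway genes. At an adjusted p under 0.1, 11 pathway genes passed. Without the dimmest 50% of genes 1 receptor passed, since Pgr and Nr3c2 were among the genes left out. Leaving out single arrays gave 2 to 3 receptors and 5 to 8 pathway genes. Esr1 passed under all 20 alternatives (2.27 to 2.59). Pgr was tested under 19 and passed under 12 (0.33 to 0.49), and Nr3c2 passed under 18 of 19, all but unmoderated variances (-0.99 to -0.74). Esr2, Esrra, Esrrb, Esrrg and Nr3c1 passed under none; Esrra (-0.03 to 0.09) and Esrrb (-0.02 to 0.03) had no stable sign. Apart from the receptors, the other named genes kept their side of the threshold in 437 of 478 recomputations, lost a call in 35 and gained one in 6. With the replicate number as a block, 987 genes, the same number of receptors (3) and 9 pathway genes passed; same-numbered arrays deviated together with correlations of 0.11, 0.06, 0.30 and 0.15, which are not all above 0.1, so the numbers were not taken as pairs. That 6 of 8 arrays matched their own number best is a hint of pairing from the data, not from the labels. The block changed no call among the 32 named genes whose calls were recomputed. Of the 9 pathway genes that passed with it, 6 also passed without it, and the others gained a call. With the block the limma adjusted p was 1.01e-04 for Prokr2 and 5.02e-04 for Ddit4. Signals near the floor limit Esr2, Esrrb, Pgr and Nr3c2.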
